A study of Mus musculus with 16 samples.

Results

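The genes described here are 38 genes of the endoplasmic reticulum (ER) stress and ATF4 responses, taken by name from the 55487 gene identifiers of the deposited count table. Each of the 38 names was found, and all 38 passed the filter on low counts that left 24252 genes for testing. The study sequenced the RNA of 16 organoid samples from the mouse mammary gland, an organoid being a small cluster of epithelial cells grown in culture. There were 3 WT samples, 4 with a PIK3CA mutation, 4 with a HER2 mutation and 5 with both mutations, called double mutant below. The series title names the changes as HER2 V777L and PIK3CA H1047R. How and in which cells the mutant alleles were expressed, the age of the mice and the number of mice per genotype are not given in the sources used here. Every culture received epidermal growth factor, N-acetyl-cysteine, B27 and conditioned medium with Rspo1 and Noggin. By its label the tissue was normal breast for WT samples and tumor for samples of any mutant genotype, so genotype and source cannot be told apart in comparisons with WT. Nothing states that the samples of a genotype came from separate animals, and the p-values measure the spread between these samples only.

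Secretory and membrane proteins are folded in the ER, and an excess of unfolded protein there starts the unfolded protein response. Its sensors are ATF6, IRE1 (encoded by Ern1) and PERK (encoded by Eif2ak3). ATF6 and XBP1, whose mRNA is spliced by IRE1, switch on genes for chaperones, disulfide isomerases and ER-associated degradation (ERAD), the route by which misfolded proteins leave the ER to be destroyed. PERK phosphorylates the translation factor eIF2, which slows protein synthesis in general and favours translation of ATF4. Other eIF2 kinases, which sense amino acid shortage, heme shortage or double-stranded RNA, also lead to ATF4, and mTORC1 signalling can raise it too. ATF4 induces genes for amino acid synthesis and uptake, including the serine pathway, which feeds mitochondrial one-carbon metabolism. In the mammary gland, the ER expands when alveolar cells secrete milk proteins. Counts of gene transcripts do not show protein levels, XBP1 splicing or phosphorylation.

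The response is known for short DNA elements close to the start of its target genes, and the promoters that hold them are shown here because the members were grouped by these factors. RefSeq promoters of GRCm38.p6, from 250 bases before to 50 bases after the start, were found for 34 of the 38 members. Atf6, Hyou1, Manf and Sec61a1 had no entry. The ER stress response element, bound by ATF6 and XBP1 with the factor NF-Y, was searched on both strands as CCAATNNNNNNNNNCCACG. It was found in the promoters of 8 of the 34 members and in 0.119% of all 32851 promoters. This element was first described in promoters of ER chaperone genes, so its presence there is background and not a result. The sites follow 5′ to 3′ on the strand of the gene, with the element in capitals, and those of Calr and Creld2 and the second site of Hsp90b1 lie on the opposite strand.
Hspa5, chr2:34772020-34772048: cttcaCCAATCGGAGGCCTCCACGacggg
Hsp90b1, first site, chr10:86705633-86705661: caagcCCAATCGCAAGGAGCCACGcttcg
Hsp90b1, second site, chr10:86705528-86705556: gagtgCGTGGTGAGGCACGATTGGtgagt
Calr, chr8:84847070-84847098: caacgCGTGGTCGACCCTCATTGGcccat
Canx, chr11:50325795-50325823: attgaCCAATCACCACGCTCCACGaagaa
Creld2, chr15:88819515-88819543: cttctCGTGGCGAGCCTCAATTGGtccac
Dnajc3, chr14:118937822-118937850: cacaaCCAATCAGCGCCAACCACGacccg
Pdia6, chr12:17266486-17266514: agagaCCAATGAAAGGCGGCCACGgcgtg
Syvn1, chr19:6046527-6046555: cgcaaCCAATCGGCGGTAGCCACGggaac

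The element began 65 bases before the start in Hspa5, 44 in Syvn1, 98 in Pdia6, 105 in Dnajc3 and 145 in Canx, and the Hspa5 site overlaps an exon of that gene in GENCODE M21. By edgeR's test across all genes, at an adjusted p under 0.05, 5 of these 8 genes were higher in double mutant than in WT organoids (Hspa5, Hsp90b1, Pdia6, Calr and Canx), where 5.03% of all tested genes were. In HER2 mutant against WT organoids 4 were higher (Hspa5, Hsp90b1, Pdia6 and Syvn1), where 4.75% of all tested genes were. These 8 are among the 38 members, of which 16 were higher in double mutant and 6 in HER2 mutant than in WT organoids. Whether the element goes with the calls was not tested. Dnajc3 and Creld2 hold the element and did not pass the threshold in any pair of genotypes.

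The C/EBP-ATF response element, bound by ATF4 with a C/EBP partner, was searched on both strands as TGATGNAA. It was found in 4 of the 34 members (Asns, Chac1, Herpud1 and Trib3) and in 3.97% of all promoters. The Trib3 match begins 14 bases after the start and is not shown. The sites of Chac1 and Herpud1 lie on the opposite strand, and that of Asns overlaps an exon of the gene. Asns, Chac1 and Trib3 were higher in double mutant than in PIK3CA mutant organoids, where 7 of the 38 members and 0.309% of all tested genes were. Atf4, Mthfd2, Sesn2 and Hspa5, also higher there, had no match. Of the 4 genes with the element, 2 were higher in double mutant and 0 in HER2 mutant than in WT organoids. The shares of all tested genes were 5.03% and 4.75%. Herpud1 separated the genotypes in another way than the chaperones did. The sites below were chosen for display with these results known.
Asns, chr6:7693214-7693243: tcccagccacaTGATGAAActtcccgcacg
Chac1, chr2:119351038-119351067: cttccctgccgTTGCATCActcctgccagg
Herpud1, chr8:94386306-94386335: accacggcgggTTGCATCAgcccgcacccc

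The core of the unfolded protein response element, TGACGTGG, was in the searched window of 0 of the 34 members and of 0.676% of all promoters. A match is a run of letters and not a measured binding site, and its absence concerns only this window.

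Total counts were between 45545182 and 64168308 per library, and the lowest count of any member in any library was 72. Expression levels are counts per 1000000 counts of the library (CPM), scaled with TMM factors, on which 3 counts were worth 0.0477 to 0.0668 CPM. Erbb2, the mouse gene of HER2, had mean levels of 156 CPM in WT, 168 in PIK3CA mutant, 3599.8 in HER2 mutant and 2031 in double mutant organoids. Pik3ca had 81.3, 101, 67.0 and 115 CPM in the same order, and whether the reads carry the mutations was not analysed here. Luminal epithelial markers (7 genes) summed to 2159.6 to 2396 CPM in WT, 3113 to 3954 in PIK3CA mutant, 1930.4 to 3403 in HER2 mutant and 2829 to 5736 in double mutant libraries. Basal markers (7 genes) summed to 470.2 to 1011, 498 to 1368, 259 to 971 and 553 to 1018 CPM, with medians of 881, 1179, 323 and 926, and in HER2 mutants 2 of the 7 were lower than in WT and 3 lower than in PIK3CA mutants. Summed levels of 9 macrophage markers were 1183 to 4563 CPM in WT, 612 to 773 in PIK3CA mutant, 273 to 456 in HER2 mutant and 239 to 425 in double mutant libraries. For 7 fibroblast markers the ranges were 352 to 1939.6, 68.1 to 485, 35.2 to 639 and 26.6 to 60.7 CPM. Of the macrophage markers, Cd14 made up most of the sum in PIK3CA mutant (573 to 752 CPM) and double mutant (183 to 403) libraries. In WT libraries Cd14 had 492 to 599.6 CPM. Lyz2 had 405 to 2649 CPM in WT, at most 7.84 in PIK3CA mutant, 142 in HER2 mutant and 0.337 in double mutant libraries. Endothelial markers (4 genes) stayed at or below 4.59 CPM, adipocyte markers (4 genes) below 1 CPM and plasma cell markers (5 genes) at or below 23.4 CPM. None of the markers was at 0 in every library. In bulk samples, fewer cells of a type and less RNA per cell cannot be told apart, and the part of other cell types in the results below was not tested.

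Double mutant libraries 2 and 3 stood apart from the other double mutant libraries. On the second principal component of all genes, which held 14.7% of the variance, they lay at -35.6 and -10.9 and the others between 33.6 and 47.8. Results for the double mutant are therefore given with all 5 libraries and, as an alternative chosen after seeing the data, without these 2.

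A gene was called different between genotypes when edgeR's quasi-likelihood test, fitted to all 16 libraries and 24252 genes, gave a Benjamini-Hochberg adjusted p under 0.05. Log2 fold changes are given with their standard error (SE). In double mutant against WT organoids, 16 of the 38 members were higher and 0 lower, where 11.8% of all tested genes were called, 5.03% higher and 6.72% lower. The median log2 fold change of the members was 0.64, against 0.01 for all tested genes. In HER2 mutant against WT organoids, 6 members were higher and 0 lower, where 10.4% of all genes were called, 4.75% higher and 5.63% lower, with a median of 0.54 for the members and 0.03 for all genes. In PIK3CA mutant against WT organoids, 0 members were called, where 4.52% of all genes were, 1.49% higher and 3.03% lower, with a median of 0.11 for the members and -0.03 for all genes. At an unadjusted p under 0.05 this edgeR test counted 6 members for PIK3CA, where 4086 of all 24252 genes had such a p. DESeq2 called 3 members and 1869 of all genes at its adjusted threshold, and limma on the normalized table called 1 and 1162. With the PIK3CA and WT libraries alone, edgeR called 11 members and 4136 of all genes. Fitted to the HER2 and WT libraries alone, edgeR called 1 of the 6 for HER2, Hyou1, and gave adjusted p of 0.0591 for Hspa5, 0.0513 for Hsp90b1, 0.129 for Pdia6, 0.129 for Syvn1 and 0.133 for Sesn2. Of all genes, edgeR called 541 with the HER2 and WT libraries alone, where the fit of all libraries called 2518. For the double mutant and WT libraries alone it called 14 members, including a member not called in the fit of all libraries, and 2677 of all genes. The calls of Canx, Ddit3 and Asns were lost, with adjusted p of 0.0889, 0.057 and 0.0507. These comparisons share the 3 WT libraries.

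Among mutants, 7 members were higher in double mutant than in PIK3CA mutant organoids and 0 lower, where 0.672% of all genes were called, 0.309% higher and 0.363% lower. The members' median log2 fold change there was 0.43, against 0.04 for all genes. This count was 0 without PIK3CA mutant 1, 2 or 3 or double mutant 1 or 5, and 1 without PIK3CA mutant 4 or double mutant 4. Calls over all genes fell as well, from 163 to 39, 21, 17 and 30 without PIK3CA mutant 1, 2, 3 and 4 in turn. They were 69, 65 and 50 without double mutant 1, 4 and 5. Fitted to these genotypes alone, edgeR called 6 members there, including a member not called in the fit of all libraries, and 364 of all genes. It lost Chac1 and Asns, with adjusted p of 0.0617 and 0.0542. Between double and HER2 mutants 1 member, Herpud1, was higher in the double mutant and 0 were lower, where 2.5% of all genes were called, 1.03% higher and 1.47% lower. Between the single mutants 3 members were higher and 1 was lower in HER2 than in PIK3CA mutant organoids, where 4.41% of all genes were called, 2.21% higher and 2.2% lower. In all, 20 of the 38 members were called in at least 1 of these 6 pairs of genotypes, 9 of them in 2 or more, and 18 in none. The 18 were Atf6, Ern1, Eif2ak3, Xbp1, Creb3l2, Dnajb9, Dnajb11, Dnajc3, Sdf2l1, Creld2, Pdia3, Pdia4, Sel1l, Edem1, Sec61a1, Ppp1r15a, Psph and Shmt2.

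**Figure D1:**
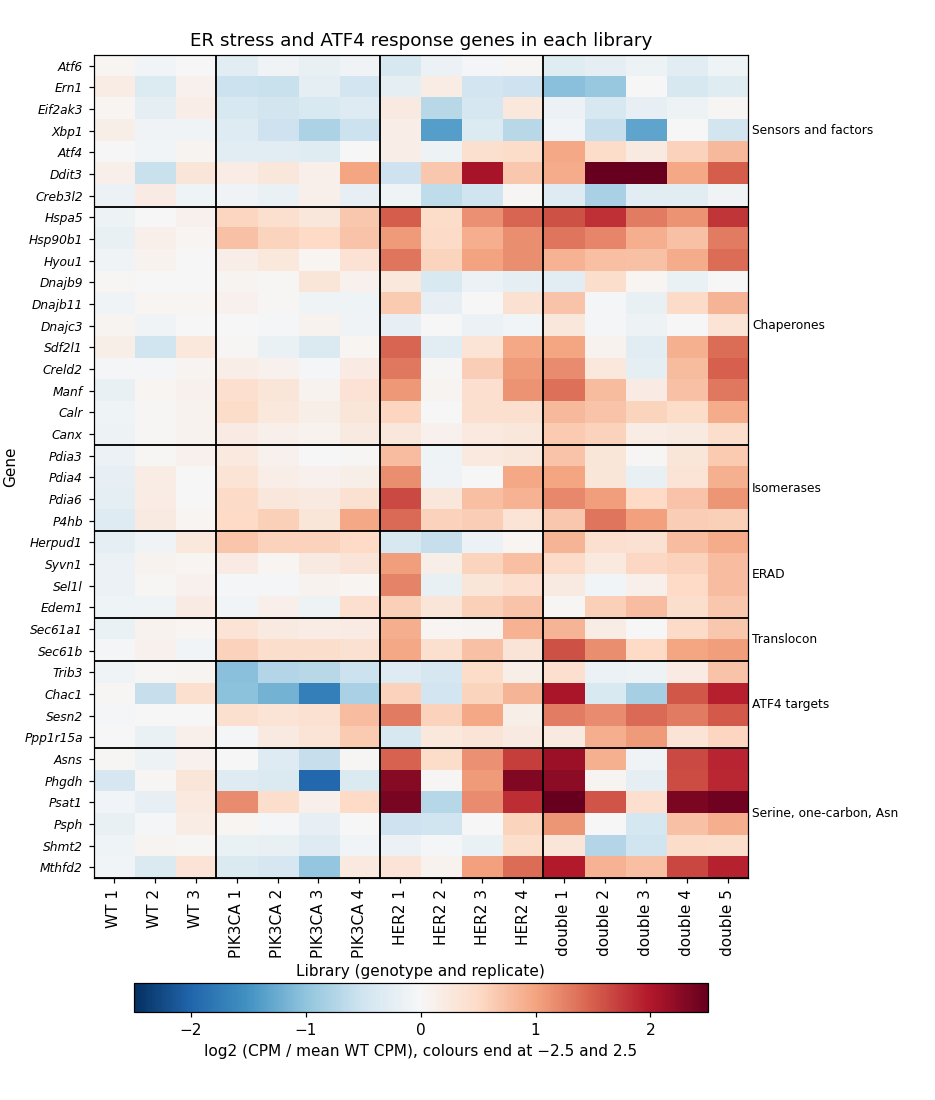
Level of each of the 38 genes (vertical axis, grouped by role) in each of the 16 libraries (horizontal axis), as the log2 of its CPM over the mean CPM of the WT libraries. Hspa5 and Hsp90b1 are above WT in every mutant library, while Asns is high in the HER2 and double mutant libraries except double mutant 3, at 18.2 CPM.

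The count for double mutant against WT depended on the small WT group. With all libraries it was 16 of 38, where 2850 of all genes were called. It was 6, 7 and 8 of 38 without WT library 1, 2 and 3 in turn, where 1591, 2345 and 1173 of all genes were called. Without double mutant libraries 2 and 3 it was 20 of 38, all higher, where 9.01% of all genes were called and 3.8% were higher, and the members' median log2 fold change was 0.76. The count for HER2 mutant against WT was 3, 4 and 3 without WT library 1, 2 and 3, and 11 without HER2 mutant library 2. Of all genes 1154, 1793, 733 and 2693 were called in these fits in that order, against 2518 with all libraries. All libraries of the 1 genotype lay above all of the other for 17 members in double mutant against WT, where 9.68% of all genes did so, and below for 1 member, where 13.4% did. For HER2 mutant against WT these numbers were 11 above and 0 below, where 9.81% and 12.4% of all genes did so. For PIK3CA mutant against WT they were 11 and 5, where 13.8% and 15.7% did so. Among mutants they were 10 and 0 for double against PIK3CA mutants (3.42% and 4.5% of all genes), 1 and 0 for double against HER2 mutants (2.21% and 2.38%), and 5 and 1 for HER2 against PIK3CA mutants (5.63% and 6.87%).

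Per kilobase of exon, the most abundant members in WT organoids were Xbp1, at 235 ± 23.2 CPM per kb (SD, n = 3), P4hb at 153 ± 28.9, Calr at 127 ± 8.41 and Atf4 at 84.0 ± 4.36. The WT libraries of P4hb and Calr overlapped on this scale, and those of Xbp1 lay above both. Psph, at 1.47 ± 0.184 CPM per kb, and Mthfd2, at 2.41 ± 0.595, were the lowest. Hspa5 was the sixth in WT, at 64 ± 5.17 CPM per kb, and stood at 188 ± 38.8 (n = 5) in double mutant organoids, where Xbp1 stood at 176 ± 56.8 and P4hb at 281 ± 68.0.

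Of the 7 sensors and transcription factors, 2 (Ddit3 and Atf4) were higher in double mutant than in WT organoids. Atf4 was also higher in double mutant than in PIK3CA mutant organoids, and none was called in the other pairs. Beside these and later counts by role, 5.03% of all tested genes were higher in double mutant and 4.75% in HER2 mutant against WT. Against PIK3CA mutants 0.309% were higher in the double mutant and 2.21% in the HER2 mutant. The mRNAs of the sensors Atf6, Ern1 and Eif2ak3, of Xbp1 and of Creb3l2, an ER membrane-bound factor, all had negative log2 fold changes in each comparison with WT, and none of these passed the threshold.

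Atf4, the transcription factor translated when eIF2 is phosphorylated, had 196, 189 and 209 CPM in the WT libraries and 163, 165, 161 and 198 in the PIK3CA mutant libraries. It had 221, 181, 262 and 274 CPM in the HER2 mutant libraries and 385, 274, 229.8, 295 and 345 in the double mutant libraries. All double mutant libraries were above all WT and PIK3CA mutant libraries and overlapped the HER2 mutant ones. Atf4 had a log2 fold change of 0.63 (SE 0.171, edgeR adjusted p = 0.0255) in double mutant against WT, and against PIK3CA mutant organoids 0.83 (SE 0.156, edgeR adjusted p = 0.0257). The call against WT was lost when WT 1, WT 2, WT 3 or double mutant 5 was left out, with adjusted p up to 0.0961, and that against PIK3CA when any PIK3CA library or double mutant 1, 4 or 5 was, with adjusted p up to 0.121. The value against WT was 0.79 without double mutant 2 and 3 (edgeR adjusted p = 0.00929).

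Ddit3 encodes CHOP, a factor that ATF4 induces and that promotes cell death under lasting stress. It had 10.4, 6.54 and 11.8 CPM in WT, 10.9, 11.6, 10.5 and 19.0 in PIK3CA mutant and 6.7, 15.2, 39.7 and 15.2 in HER2 mutant libraries. In the double mutant libraries it had 18.2, 68.7, 178, 18.8 and 27.4 CPM. Double mutant libraries 2 and 3, which stood apart on all genes, held the highest levels, and the remaining 3 were 18.2 to 27.4 CPM. With all libraries the log2 fold change of Ddit3 in double mutant against WT was 2.70 (SE 0.756, edgeR adjusted p = 0.0295). Without double mutant 2 and 3 it was 1.16 and no longer passed the threshold (edgeR adjusted p = 0.165). It was also lost when double mutant 3, WT 1, WT 2 or WT 3 alone was left out, with adjusted p up to 0.104. Of the 2 identifiers named Ddit3, the identifier with the longer gene model is used here. Its exons overlap those of Mars and Gm4189 on the opposite strand and those of the second Ddit3 entry on the same strand. These overlaps cover 10.9% of their length in all. The strand setting of the counting is not given in the sources used here, and would not separate the 2 Ddit3 entries.

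Xbp1 had 851, 723 and 718 CPM in WT, 609, 533, 443 and 529 in PIK3CA mutant, 855, 295, 605 and 473 in HER2 mutant and 724, 512, 305, 766 and 558 in double mutant libraries. The PIK3CA mutant libraries were all below the WT libraries, and the other mutant genotypes overlapped WT. The log2 fold changes of Xbp1 against WT were -0.53 (SE 0.309) for PIK3CA, -0.46 (SE 0.31) for HER2 and -0.42 (SE 0.295) for the double mutant, with edgeR adjusted p of 0.42, 0.382 and 0.394. Ern1, whose product splices Xbp1 mRNA, had the lowest log2 fold change of its role in double mutant against WT, -0.48 (SE 0.224, edgeR adjusted p = 0.178). It had 99.0, 69.3 and 94.5 CPM in WT, 60.2, 59.6, 73.7 and 62.8 in PIK3CA mutant, 73.9, 99.2, 62.6 and 61.6 in HER2 mutant and 42.4, 45.4, 88.3, 66.2 and 71.2 in double mutant libraries. Each mutant genotype overlapped WT.

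Hspa5 and Hsp90b1 were above WT in every mutant library. Of the 11 ER chaperones, 6 were higher in double mutant than in WT organoids (Hspa5, Hsp90b1, Hyou1, Manf, Calr and Canx), 3 in HER2 mutant than in WT organoids (Hspa5, Hyou1 and Hsp90b1), 1 in double mutant than in PIK3CA mutant organoids (Hspa5) and 1 in HER2 mutant than in PIK3CA mutant organoids (Hyou1). All 11 had a positive log2 fold change in double mutant against WT, with a median of 0.74.

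Hspa5 encodes BiP, the ER chaperone that holds the sensors inactive in unstressed cells. It had 249, 271 and 293 CPM in WT libraries, 392, 357, 328 and 432 in PIK3CA mutant, 777, 374, 596 and 741 in HER2 mutant and 816, 965, 664, 590 and 933 in double mutant libraries. Every mutant library was above every WT library, and the double mutant libraries were all above the PIK3CA mutant ones. For Hspa5 in double mutant against WT the log2 fold change was 1.55 (SE 0.23, edgeR adjusted p = 0.000571), a 2.93-fold difference. The HER2 mutant had 1.2 against WT (SE 0.233, edgeR adjusted p = 0.00533). The PIK3CA mutant had 0.48 (SE 0.228) against WT, with an unadjusted p of 0.0521. Double against PIK3CA mutant organoids gave 1.07 (SE 0.203, edgeR adjusted p = 0.0265). Both calls against WT held when any 1 library was left out, though that for HER2 did not in the fit to HER2 and WT libraries alone, while that against PIK3CA was lost without any PIK3CA library or without double mutant 1, 2 or 5, with adjusted p up to 0.133.

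Hsp90b1 encodes GRP94, an ER member of the HSP90 family. It had 129.5, 161 and 153 CPM in WT, 246, 218, 208 and 243 in PIK3CA mutant, 309, 207, 278 and 332 in HER2 mutant and 374, 345, 279.6, 247 and 366 in double mutant libraries. As with Hspa5, all mutant libraries were above all WT libraries. Its log2 fold change was 1.12 (SE 0.175, edgeR adjusted p = 0.000756) in double mutant and 0.93 (SE 0.179, edgeR adjusted p = 0.00515) in HER2 mutant against WT, and 0.63 (SE 0.178, edgeR adjusted p = 0.057) in PIK3CA mutant against WT. The calls for double and HER2 mutants held in each fit that left out 1 library, and that for HER2 was lost in the fit to HER2 and WT libraries alone. The exons of Hsp90b1 overlap other annotated exons along 15.7% of their length.

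Hyou1, an ER member of the HSP110 family that helps Hspa5 exchange nucleotide, had 119.8, 135 and 126 CPM in WT and 143, 152, 131 and 164 in PIK3CA mutant libraries. It had 322, 186, 256 and 286 CPM in HER2 mutant and 231, 213, 210, 243 and 336 in double mutant libraries. The HER2 and double mutant libraries lay above all WT and PIK3CA mutant libraries. The log2 fold change was 1.05 (SE 0.19, edgeR adjusted p = 0.00367) in HER2 mutant and 0.96 (SE 0.183, edgeR adjusted p = 0.00316) in double mutant against WT, and 0.83 (SE 0.172, edgeR adjusted p = 0.014) in HER2 mutant against PIK3CA. The call against PIK3CA reached an adjusted p of 0.0529 without PIK3CA mutant 2 or 3, and the calls against WT held without any 1 library.

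Manf, a secreted stress-induced protein of the ER, and the lectin chaperones Calr and Canx, which hold glycoproteins during folding, completed the calls in double mutant against WT. Their log2 fold changes were 0.95 (SE 0.267) for Manf, 0.70 (SE 0.146) for Calr and 0.43 (SE 0.124) for Canx, with edgeR adjusted p of 0.0295, 0.00535 and 0.035. Calr held without any 1 library. Canx was lost without any 1 WT library or without double mutant 1, 2 or 5, with adjusted p up to 0.17, and Manf without any 1 WT library or double mutant 1 or 5, with adjusted p up to 0.131. Calr ranged from 340.2 to 388 CPM in WT and from 502 to 692 in double mutant libraries.

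Dnajb9, Dnajb11 and Dnajc3 encode J-domain co-chaperones of BiP. Dnajb9 had 43.2, 42.5 and 42.1 CPM in WT, 44.9, 43.6, 52.9 and 46.2 in PIK3CA mutant, 51.0, 32.9, 38.3 and 35.9 in HER2 mutant and 35.7, 57.4, 44.0, 37.9 and 42.1 in double mutant libraries. Its log2 fold change of 0.03 (SE 0.163) in double mutant against WT was the smallest of the chaperones, and WT lay within the range of the double mutant libraries. Dnajb11 and Dnajc3 had 0.42 (SE 0.23) and 0.10 (SE 0.117) in the same comparison. Creld2 and Sdf2l1, small stress-induced ER proteins, had 0.83 (SE 0.331) and 0.74 (SE 0.385), with levels in double mutant libraries from 11.3 to 37.3 CPM for Creld2 and from 8.72 to 27.6 for Sdf2l1. None of these 5 passed the threshold with all libraries. Dnajb11 and Creld2 passed it without double mutant 2 and 3, with Creld2 at 1.19 (edgeR adjusted p = 0.0146).

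**Figure D2:**
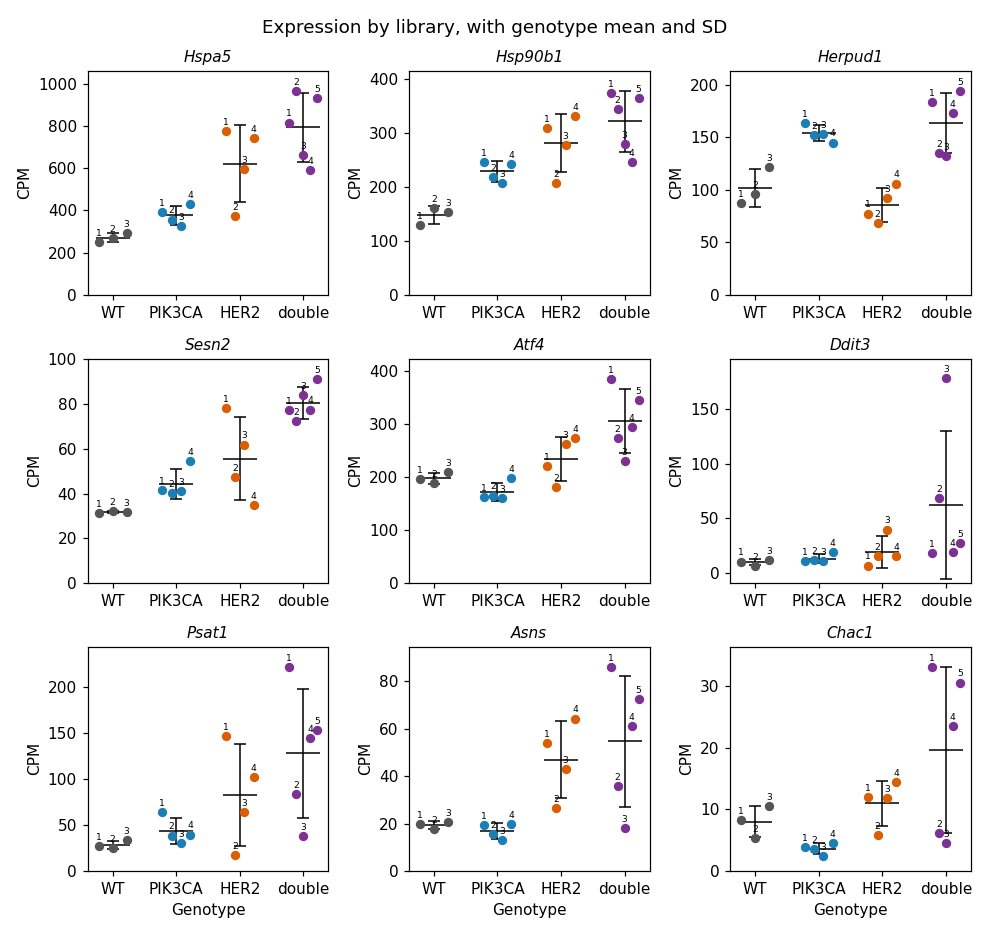
CPM of 9 genes, chosen after their values were seen, in each library (points, numbered by replicate) of each genotype (horizontal axis), with the genotype mean (bar) and SD (whiskers). Hspa5 and Hsp90b1 are lowest in WT, Herpud1 is high in the PIK3CA and double mutants and low in WT and HER2 mutants, and Ddit3 is highest in double mutant libraries 2 and 3.

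Of the 4 disulfide isomerases, which form and rearrange disulfide bonds, Pdia6 and P4hb were higher in double mutant than in WT organoids, and Pdia6 was higher in HER2 mutant than in WT organoids. Pdia6 had 77.1, 102 and 89.3 CPM in WT, 124, 109, 105 and 117 in PIK3CA mutant, 280.1, 109, 151 and 164 in HER2 mutant and 206, 184, 127, 146 and 193 in double mutant libraries. Every mutant library was above every WT library, and HER2 mutant 1 was the highest of all. Pdia6 had a log2 fold change of 0.98 (SE 0.253, edgeR adjusted p = 0.0243) in HER2 mutant and 0.94 (SE 0.244, edgeR adjusted p = 0.0208) in double mutant against WT. Both calls were lost without WT 1 or WT 3, with adjusted p up to 0.11. P4hb, which also serves as a subunit of prolyl 4-hydroxylase, had a log2 fold change of 0.88 (SE 0.256, edgeR adjusted p = 0.0359) in double mutant against WT. Without double mutant 2 and 3, where P4hb had 1107 and 891 CPM against 657 to 693 in the other double mutant libraries, it was 0.62 (edgeR adjusted p = 0.156). The P4hb call was also lost without any 1 WT library or without double mutant 2 or 3 alone, with adjusted p up to 0.17.

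Pdia3 had the smallest log2 fold change of the isomerases in double mutant against WT, 0.42 (SE 0.184, edgeR adjusted p = 0.151). Its levels were 206, 232 and 247 CPM in WT, 271, 245, 228 and 233 in PIK3CA mutant, 387, 213, 269.7 and 279 in HER2 mutant and 373, 281, 234, 282 and 359 in double mutant libraries. WT and each mutant genotype overlapped. Pdia4 had 0.53 (SE 0.292) in the same comparison and was not called.

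The ERAD genes differed in pattern among themselves. Herpud1, an ER membrane protein of the ERAD complex, had 87.6, 96.0 and 122 CPM in WT, 164, 152, 153 and 145 in PIK3CA mutant, 77.5, 68.2, 92.0 and 106 in HER2 mutant and 184, 135, 132, 173 and 194 in double mutant libraries. The PIK3CA and double mutant libraries were all above all WT and HER2 mutant libraries. For Herpud1 in double mutant against HER2 mutant the log2 fold change was 0.93 (SE 0.156, edgeR adjusted p = 0.00713). Between HER2 and PIK3CA mutants it was -0.84 (SE 0.162, edgeR adjusted p = 0.01). Both calls held without any 1 library. Against WT it was 0.68 (SE 0.171, edgeR adjusted p = 0.0163) in the double mutant, 0.59 (SE 0.177, edgeR adjusted p = 0.0721) in the PIK3CA mutant and -0.25 (SE 0.174) in the HER2 mutant. The call in double mutant against WT was lost without WT 1 or WT 2, with adjusted p up to 0.101. Herpud1 was the 1 member called lower in any pair of genotypes.

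Syvn1, the ubiquitin ligase HRD1 at the centre of ERAD, was higher in HER2 mutant than in WT organoids, with a log2 fold change of 0.67 (SE 0.177, edgeR adjusted p = 0.0271), from 62.8 to 74.1 CPM in WT to 77.1 to 143 in HER2 mutant libraries. That call was lost without HER2 mutant 1 or any 1 WT library, with adjusted p up to 0.122. Syvn1 had 0.53 (SE 0.17, edgeR adjusted p = 0.0545) in double mutant against WT. Edem1, which recognises trimmed glycans, had 0.56 (SE 0.178) in HER2 mutant and 0.52 (SE 0.171) in double mutant against WT, with edgeR adjusted p of 0.0575 and 0.0612. Sel1l, the partner of Syvn1, had the smallest log2 fold change of the ERAD genes in double mutant against WT, 0.34 (SE 0.249). It had 159.7, 179 and 189.9 CPM in WT, 170.2, 172, 187 and 182 in PIK3CA mutant, 418, 154, 218 and 236 in HER2 mutant and 206, 168, 191, 247 and 299 in double mutant libraries. The high value of Sel1l in HER2 mutant 1 and the low value in HER2 mutant 2 lay on both sides of the WT range.

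Of the translocon, the channel through which new proteins enter the ER, Sec61b was higher in double mutant than in WT organoids. It had 24.7, 27.5 and 24.4 CPM in WT, 38.2, 34.5, 34.8 and 33.2 in PIK3CA mutant, 50.0, 33.5, 42.4 and 31.9 in HER2 mutant and 77.3, 57.4, 36.0, 50.5 and 52.5 in double mutant libraries. All mutant libraries were above all WT libraries. For Sec61b in double mutant against WT the log2 fold change was 1.1 (SE 0.205, edgeR adjusted p = 0.00268) and held without any 1 library. Sec61a1, the pore subunit, had 134, 160.1 and 156 CPM in WT, 189, 175, 171 and 173 in PIK3CA mutant, 279.8, 156, 158 and 274 in HER2 mutant and 269, 170.2, 151, 208 and 240.4 in double mutant libraries. Its log2 fold change in double mutant against WT was 0.47 (SE 0.219, edgeR adjusted p = 0.179), and double mutant 3 lay within the WT range.

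The feedback genes and targets of ATF4 comprised 4 members. Sesn2 was higher in double mutant and in HER2 mutant than in WT organoids, and Chac1, Trib3 and Sesn2 were higher in double mutant than in PIK3CA mutant organoids. Ppp1r15a, the GADD34 subunit that directs eIF2 dephosphorylation, was not called, at 0.65 (SE 0.218, edgeR adjusted p = 0.0644) in double mutant against WT, and double mutant 2 and 3 were its highest libraries.

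Sesn2, a stress-induced protein that restrains mTORC1 when leucine is short, was higher in every mutant library than in WT. It had 31.1, 32.1 and 31.7 CPM in WT, 41.6, 40.3, 41.2 and 54.4 in PIK3CA mutant, 78.2, 47.5, 61.9 and 35.0 in HER2 mutant and 77.2, 72.3, 84.2, 77.6 and 91.2 in double mutant libraries. The double mutant libraries were also all above the PIK3CA mutant ones. For Sesn2 in double mutant against WT the log2 fold change was 1.35 (SE 0.206, edgeR adjusted p = 0.000677), held without any 1 library and was 1.37 without double mutant 2 and 3. HER2 mutant against WT gave 0.81 (SE 0.208, edgeR adjusted p = 0.0227), and was lost without HER2 mutant 3 or any 1 WT library, with adjusted p up to 0.0967. Double against PIK3CA mutants gave 0.86 (SE 0.183, edgeR adjusted p = 0.0483), and no fit that left out 1 library kept the call.

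Trib3, a pseudokinase that ATF4 and CHOP induce and that dampens their activity, was lower than WT in the PIK3CA mutant libraries without passing the threshold. It had 79.4, 85.3 and 87.7 CPM in WT, 41.0, 50.9, 52.3 and 57.8 in PIK3CA mutant, 67.7, 63.2, 115 and 93.0 in HER2 mutant and 112, 75.9, 77.1, 97.4 and 138 in double mutant libraries. The PIK3CA mutant libraries were below all other libraries. Trib3 had a log2 fold change of -0.74 (SE 0.223, edgeR adjusted p = 0.0779) in PIK3CA mutant against WT, 0.99 (SE 0.202, edgeR adjusted p = 0.0406) in double mutant against PIK3CA and 0.25 (SE 0.217) in double mutant against WT. The call against PIK3CA was lost without any 1 PIK3CA library or without double mutant 1, 4 or 5, with adjusted p up to 0.145.

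Chac1, an enzyme that degrades glutathione and an ATF4 target, is shown by library although the naming rule did not select it, after its values were seen. It had 8.2, 5.34 and 10.5 CPM in WT, 3.94, 3.51, 2.46 and 4.57 in PIK3CA mutant, 12.0, 5.76, 11.8 and 14.4 in HER2 mutant and 33.1, 6.15, 4.48, 23.6 and 30.6 in double mutant libraries. Double mutant 2 and 3 were within or below the WT range and the other double mutant libraries were 23.6 CPM or more. For Chac1 in double mutant against PIK3CA the log2 fold change was 2.43 (SE 0.528, edgeR adjusted p = 0.0496), and against WT it was 1.29 (SE 0.557, edgeR adjusted p = 0.146). Without double mutant 2 and 3 these were 3.0 (edgeR adjusted p = 0.0014) and 1.86 (edgeR adjusted p = 0.00519). With all 5 libraries the call against PIK3CA was lost without any 1 PIK3CA library or without double mutant 1, 4 or 5, with adjusted p up to 0.207.

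The genes of serine synthesis, mitochondrial one-carbon metabolism and asparagine synthesis had the highest median log2 fold change of any role in double mutant against WT, 1.46 over 6 genes. Psat1, Mthfd2 and Asns were higher there. Mthfd2 and Asns were also higher in double mutant than in PIK3CA mutant organoids, and Phgdh and Asns in HER2 mutant than in PIK3CA mutant organoids. Against WT, in HER2 mutants, none of the 6 was called, with a median of 1.04 and 4 of the 6 at an unadjusted p under 0.05. By this edgeR test 6225 of all 24252 genes had such a p. In all 6, double mutant 2 and 3 were the lowest of the 5 double mutant libraries.

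Psat1, the aminotransferase of serine synthesis, had 26.9, 24.6 and 33.2 CPM in WT, 63.7, 38.5, 30.8 and 39.6 in PIK3CA mutant, 147, 17.2, 64 and 102 in HER2 mutant and 222, 83.9, 37.5, 145 and 153 in double mutant libraries. All double mutant libraries were above all WT libraries, and HER2 mutant 2 was below them. For Psat1 in double mutant against WT the log2 fold change was 2.18 (SE 0.593, edgeR adjusted p = 0.0253), and 2.62 (edgeR adjusted p = 0.0109) without double mutant 2 and 3. It was lost without any 1 WT library, with adjusted p up to 0.0992. Phgdh, the first enzyme of the pathway, had 4.65, 6.32 and 7.64 CPM in WT, 4.95, 4.81, 1.59 and 4.82 in PIK3CA mutant, 30, 6.32, 13.0 and 30.7 in HER2 mutant and 29.4, 6.52, 5.32, 19.2 and 22.8 in double mutant libraries. Its log2 fold change was 2.30 (SE 0.581, edgeR adjusted p = 0.0365) in HER2 mutant against PIK3CA, and was lost without any 1 PIK3CA library or HER2 mutant 1 or 4, with adjusted p up to 0.102. Phgdh in double mutant against WT had 1.42 (SE 0.605, edgeR adjusted p = 0.14) with all libraries and 1.94 (edgeR adjusted p = 0.037) without double mutant 2 and 3.

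Asns, which makes asparagine, had 19.8, 17.8 and 20.8 CPM in WT, 19.2, 15.5, 13.0 and 19.8 in PIK3CA mutant, 54.0, 26.5, 43.1 and 64.3 in HER2 mutant and 86.0, 35.7, 18.2, 61.1 and 72.6 in double mutant libraries. Double mutant 3 lay within the WT and PIK3CA ranges, and all other HER2 and double mutant libraries were above them. Asns had a log2 fold change of 1.49 (SE 0.4, edgeR adjusted p = 0.0237) in double mutant against WT, 1.70 (SE 0.363, edgeR adjusted p = 0.0492) in double mutant against PIK3CA and 1.48 (SE 0.373, edgeR adjusted p = 0.0366) in HER2 mutant against PIK3CA. Without double mutant 2 and 3 the first was 1.91 (edgeR adjusted p = 0.00228) and the second 2.12 (edgeR adjusted p = 0.00286). The first was lost without any 1 WT library, with adjusted p up to 0.0904, the second without any 1 library but double mutant 3, up to 0.198, and the third without any 1 PIK3CA library or HER2 mutant 1 or 4, up to 0.112.

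Mthfd2, a mitochondrial folate enzyme, had 8.02, 6.56 and 10.7 CPM in WT, 6.54, 6.28, 4.3 and 10.0 in PIK3CA mutant, 10.7, 8.96, 17.2 and 22.3 in HER2 mutant and 33.2, 15.3, 14.2, 26.8 and 31.9 in double mutant libraries. All double mutant libraries were above all WT and PIK3CA mutant libraries. Mthfd2 in the double mutant had a log2 fold change of 1.53 (SE 0.377, edgeR adjusted p = 0.0154) against WT and 1.84 (SE 0.344, edgeR adjusted p = 0.0256) against PIK3CA. The first was lost without WT 1 or 2, with adjusted p up to 0.07, and the second without PIK3CA mutant 1, 2 or 3 or double mutant 1, 4 or 5, with adjusted p up to 0.12. Shmt2, which passes the carbon of serine to folate, had the smallest log2 fold change of these genes in double mutant against WT, 0.08 (SE 0.24). It had 47.9, 54.3 and 53.0 CPM in WT, 45.8, 45.7, 41.3 and 49.1 in PIK3CA mutant, 46.7, 50.2, 46.3 and 70.4 in HER2 mutant and 63.6, 31.0, 36.7, 71.1 and 70.0 in double mutant libraries. The WT range of Shmt2 lay between double mutant 2 and 3 on 1 side and the other double mutant libraries on the other. Psph, the phosphatase of the last step to serine, had 0.57 (SE 0.324) in double mutant against WT and 0.92 without double mutant 2 and 3.

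**Figure D3:**
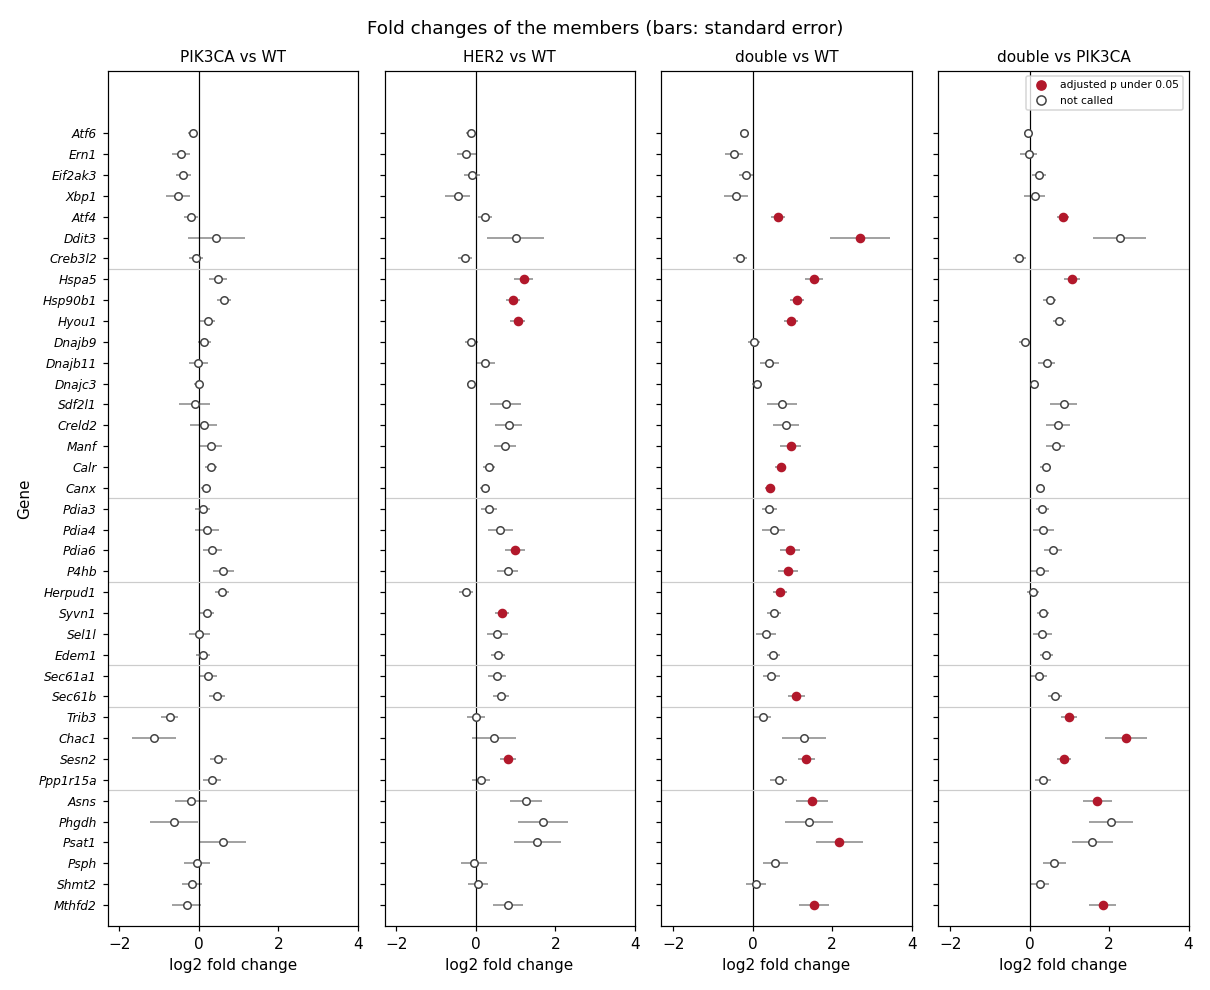
Log2 fold change (horizontal axis, bars show SE) of each of the 38 genes (vertical axis, grouped by role) in PIK3CA mutant, HER2 mutant and double mutant against WT, and in double mutant against PIK3CA mutant organoids. Filled points have an edgeR adjusted p under 0.05, which is 0, 6, 16 and 7 genes from left to right.

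The interaction, the log2 fold change of the double mutant minus those of both single mutants, was called for 0 of the 38 members by edgeR, where 1.06% of all genes were called, 0.515% higher and 0.544% lower. There were 3 members at an unadjusted p under 0.05 by edgeR, where 3291 of all 24252 tested genes had such a p. The 3 were Chac1 at 1.98 (SE 0.744), Trib3 at 0.98 (SE 0.299) and Atf4 at 0.59 (SE 0.232). DESeq2 and limma also called 0 of the 38 members, and 966 and 294 of all genes. Leaving out double mutant 2 and 3, edgeR called 2 members, Chac1 and Trib3, both higher, where 4.17% of all genes were called and 2.15% were higher. A p that misses the threshold does not show that the changes add up.

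Across all members, double mutant libraries 2 and 3 were the lowest 2 of the 5 double mutant libraries in 21 of 38 genes (55.3%), where this held for 24.2% of all tested genes. They were the highest 2 in 4 of 38 (10.5%), where this held for 23.2% of all genes. The 4 were Ddit3, Dnajb9, P4hb and Ppp1r15a. By role, they were the lowest 2 in 6 of 6 serine, one-carbon and asparagine genes, 5 of 11 chaperones, 3 of 7 sensors and factors, and 2 of 4 each of the isomerases, the ERAD genes and the ATF4 feedback genes, and 1 of 2 translocon genes. Without them, 20 members were called in double mutant against WT. Ddit3 and P4hb were lost, and Dnajb11, Creld2, Syvn1, Chac1, Psph and Phgdh were gained. Against PIK3CA mutant organoids the count was 8, where 0.889% of all genes were called and 0.472% were higher: Sesn2 was lost (0.88, edgeR adjusted p = 0.0652), and Hyou1 and Phgdh were gained. Against HER2 mutant organoids it was 3, where 4.7% of all genes were called and 2.65% were higher, with Herpud1 joined by Chac1 and Psph. Fewer genes enter this fit, and its groups are smaller.

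**Figure D4:**
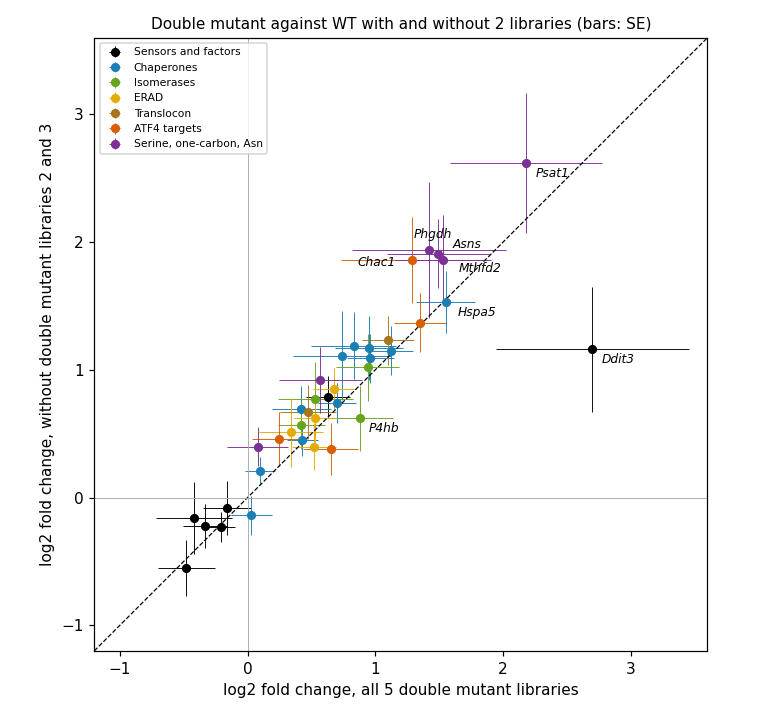
Log2 fold change in double mutant against WT with all 5 double mutant libraries (horizontal axis) and without libraries 2 and 3 (vertical axis), 1 point per gene, coloured by role, with SE bars and the line of equality. Ddit3 lies far below the line at 2.70 and 1.16, while Psat1, Asns, Chac1, Phgdh and Mthfd2 lie above it.

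The summed level of 7 alveolar secretory markers, among them the caseins Csn2 and Csn3, moved with the members' levels in some libraries and not in others. In the double mutant libraries it was 23255, 13279, 7273, 15830.3 and 16826 CPM, so the sum was lowest in libraries 2 and 3. Csn3 made up most of it, and single markers differed: Csn1s1 was highest in library 2, at 2511 CPM against 1295 to 2149.6 in the other double mutant libraries. In the HER2 mutant libraries it was 23888, 6407, 52033 and 34546 CPM, and HER2 mutant 2, with the lowest sum, was the lowest HER2 mutant library in 28 of 38 members, among them 10 of the 11 chaperones. HER2 mutant 3, with the highest sum, was the highest HER2 mutant library in 3 of 38 members, and HER2 mutant 1 in 19. Single markers differed here too: Csn2 was highest in HER2 mutant 3, at 22709 CPM, where Csn3 had 12730.5. Csn3 was highest in HER2 mutant 1, at 16429.9 CPM. The sum was 3515 to 5736 CPM in WT and 14983, 8999.7, 14044 and 9634 in PIK3CA mutant libraries, where library 3, with the second highest sum, was the lowest in 24 of 38 members. Of the 7 markers, 3 were higher in double mutant and 5 in HER2 mutant than in WT organoids. Macrophage markers were lower than in WT for 8 of 9 genes in PIK3CA mutant, 6 of 9 in HER2 mutant and 8 of 9 in double mutant organoids, and fibroblast markers for 1, 2 and 6 of 7. The part of these markers in the members' differences was not tested. Within WT, library 1 was the lowest in 22 of 38 members and library 3 the highest in 21. These ranks of HER2 mutant, PIK3CA mutant and WT libraries were counted over the members only. Whether the same libraries ranked so across all tested genes is not shown here.

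Other genes of the same pathways were counted from lists chosen with earlier results of these data known. Their counts stand beside the shares of all tested genes: 5.03% higher and 6.72% lower in double mutant, 4.75% and 5.63% in HER2 mutant and 1.49% and 3.03% in PIK3CA mutant against WT, and 0.309% and 0.363% in double against PIK3CA mutants. Without double mutant 2 and 3, 3.8% were higher against WT and 0.472% against PIK3CA mutants. Of 36 other ATF4 targets, which include aminoacyl-tRNA synthetases and amino acid transporters, 18 were higher and 0 lower in double mutant against WT, with a median log2 fold change of 0.79. The 3 with the lowest adjusted p were Xpot, the exporter of tRNA from the nucleus, at 1.01 (SE 0.151), Ddit4, an inhibitor of mTORC1, at 2.21 (SE 0.376) and Aldh18a1, of proline synthesis, at 1.28 (SE 0.226). For HER2 mutants against WT 8 were higher and 1 lower: Pycr1, the last enzyme of proline synthesis, had 2.34 (SE 0.433), and Slc3a2, a transporter subunit, had -0.84 (SE 0.189). In PIK3CA mutant against WT 3 were higher and 0 lower, Vldlr at 1.66 (SE 0.277), Slc1a4 at 0.80 (SE 0.203) and Ddit4 at 1.43 (SE 0.372). For double against PIK3CA mutants 7 were higher and 0 lower, with Aars, the alanyl-tRNA synthetase, at 0.95 (SE 0.156) and Slc7a11, the cystine transporter, at 1.98 (SE 0.38). These counts were 22 of 36 against WT and 13 of 36 against PIK3CA without double mutant 2 and 3.

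Of 20 genes for entry into the ER and signal peptide removal, 8 were higher and 0 lower in double mutant against WT, with a median of 0.52. Ssr3, of the complex beside the translocon, had 0.94 (SE 0.136), Srp72, of the signal recognition particle, had 0.66 (SE 0.121) and Srprb, of its receptor, had 0.66 (SE 0.129). In PIK3CA mutant against WT 2 of these 20 were higher, Ssr3 at 0.58 (SE 0.139) and Srp72 at 0.49 (SE 0.125), and in HER2 mutant against WT 0 were called, with 7 at an unadjusted p under 0.05 by edgeR. Of all 24252 tested genes 6225 had such a p in HER2 mutant against WT. The count for double mutant against WT was again 8 without double mutant 2 and 3. Of 29 other ER folding and ERAD genes, 5 were higher and 1 lower in double mutant against WT, with a median of 0.26. Lman1, a cargo receptor, had 0.67 (SE 0.104), Txndc5, an isomerase, had 0.48 (SE 0.119) and Ero1l, the oxidase that recharges isomerases, had 3.29 (SE 0.863), with 546 ± 529 CPM (SD, n = 5) in the double mutant against 55.8 ± 42.3 (n = 3) in WT. Os9, a lectin of ERAD, was lower in double mutant (-0.68, SE 0.138) and in HER2 mutant (-0.90, SE 0.146) than in WT organoids. Leaving out double mutant 2 and 3, 2 of the 29 were higher and 1 lower.

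The remaining lists held 0 to 2 calls each in double mutant against WT. Of 8 other ER stress factors that could be tested and of 10 eIF2 kinases and eIF2 regulators, 0 were called by edgeR, with 1 and 4 at an unadjusted p under 0.05. Of all 24252 tested genes 6565 had such a p in double mutant against WT. Called in HER2 mutants against WT were Creb3l1, an ER membrane-bound factor, at 1.37 (SE 0.381), and Eif2ak4, the eIF2 kinase GCN2 that senses amino acid shortage, at 0.58 (SE 0.132). Of 13 other folate and one-carbon genes, Aldh1l1 was higher in double mutant against WT, at 1.69 (SE 0.397), and Mtr was lower, at -0.73 (SE 0.204). Of 7 genes of the mitochondrial unfolded protein response, the chaperones Hspe1 and Hspa9 were higher, at 0.76 (SE 0.14) and 0.87 (SE 0.204). Of 11 cytosolic heat shock genes 0 were called by edgeR, with 4 at an unadjusted p under 0.05, and their median of 0.54 was 0.03 without double mutant 2 and 3.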

How the data were processed

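Organoid RNA from 16 samples of 4 genotypes was sequenced with a SMARTER mRNA kit, per the labels' protocols. Per the submitters' processing notes, the tools were bcl2fastq 2.20, STAR 2.0.4b, Subread with featureCounts 1.4.5 and DESeq2 1.33.5, and the build was mm10. The strand setting is not given in the sources used here. The authors deposited whole-number read counts per Ensembl gene and a normalized table, used as signal. The deposited signal values equal the counts divided by DESeq2 size factors (largest relative difference 5.49e-10). Of 55774 entries, 287 repeated an identifier and were dropped.

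Counts were tested with edgeR 4.0.16 in R 4.3.3: filterByExpr, TMM factors, and a quasi-likelihood fit of all 16 libraries on genotype alone, two-sided. P-values were Benjamini-Hochberg adjusted over all tested genes. The SE is the absolute log2 fold change over the square root of F. The script was tested on simulated data. Alternatives were DESeq2 1.42.0, other scalings, no filter, a GC content and length offset, a replicate block, fewer genotypes in the fit, limma 3.58.1 on log2 of the normalized value with a pseudocount of 1, and leaving out libraries. The numbers in the titles did not pair the samples by correlation of deviations. Within genotypes, log2 CPM (prior count 2) correlated at 0.925 to 0.986.

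The members and lists were chosen with earlier results of these data known. By rule, library values are given for members called in at least 2 pairs of genotypes or with the largest or smallest log2 fold change of their role in double mutant against WT, and for Atf4, Xbp1, Ddit3 and Hspa5. Chac1 and Phgdh were not selected by this rule and are given in addition. From other lists, up to 3 called genes per direction with the lowest adjusted p are named. Exon lengths and overlaps come from GENCODE M21 (GRCm38), in which 13 members share exon bases with another gene, 6 of them over 5% of their length (Eif2ak3, Ddit3, Hsp90b1, Manf, Sec61a1 and Psph). Without strand, their counts are uncertain.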

Additional observations from a re-analysis of the deposited data

Results flagged for a closer look

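In 114 groups of 4 or 5 libraries (38 members in 3 genotypes), 6 held a library far from the others of its genotype by Dixon's test, which chance gives in about 1 in 20 groups. PIK3CA mutant 4 had 198 CPM of Atf4, where the other PIK3CA mutant libraries had 161 to 165, and 19.0 CPM of Ddit3, where the others had 10.5 to 11.6. The same library had 54.4 CPM of Sesn2, where the others had 40.3 to 41.6. PIK3CA mutant 3 had 1.59 CPM of Phgdh, where the others had 4.81 to 4.95. HER2 mutant 4 had 70.4 CPM of Shmt2, where the others had 46.3 to 50.2. Double mutant 5 had 336 CPM of Hyou1, where the others had 210 to 243.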

How the results depend on the processing

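The 34 calls of a member in a pair of genotypes were refitted under each alternative. Of 604 such fits, 442 kept the call, 162 lost it and 0 changed its direction. DESeq2, median-of-ratios and upper-quartile scaling kept all 34. No scaling moved the median of all genes by over 0.1. Calls over all genes moved as well. In PIK3CA mutant against WT they went from 1096 to 1869 with DESeq2 and 4136 with only these genotypes. In HER2 mutant against WT they were 2518, against 3754 with DESeq2, 541 with only these genotypes and 733 to 2693 without 1 library. Without 1 library, double mutant against WT had 1173 to 2961, where all libraries gave 2850. Double against PIK3CA mutants had 17 to 143, where all libraries gave 163. The number of members called in PIK3CA mutant against WT was 0, against 3 with DESeq2, 2 with upper-quartile scaling, 1 with the GC content and length offset, 1 with limma and 11 with only these genotypes in the fit. For HER2 mutant against WT it was 6, against 12 with DESeq2 and 1 with only these genotypes, and 3 to 11 without 1 library. For double mutant against WT it was 16, and 6 to 16 without 1 library. Between double and HER2 mutants it was 1, against 0 with only these genotypes and 3 without double mutant 2 and 3, and 1 to 2 without 1 library (2 without HER2 mutant 1). Between double and PIK3CA mutants it was 7, and 0 to 7 without 1 library: 0 without PIK3CA mutant 1, 2 or 3 or double mutant 1 or 5, 1 without PIK3CA mutant 4 or double mutant 4, and 4 without double mutant 2. Between HER2 and PIK3CA mutants it was 4, against 8 with DESeq2, and 1 to 9 without 1 library: 9 without HER2 mutant 2, 2 without HER2 mutant 4 or PIK3CA mutant 1 or 4, and 1 without PIK3CA mutant 2 or 3. For the interaction it was 0, and 2 without double mutant 2 and 3, where 257 and 998 of all genes were called. Between double and HER2 mutants 606 of all genes were called, 37 with only these genotypes and 1125 without double mutant 2 and 3. Between HER2 and PIK3CA mutants 1069 of all genes were called, 2219 with DESeq2 and 427 to 1166 without 1 library. The interaction needs all 4 genotypes, so a fit with fewer was not run. The causes were not tested, except that fewer libraries entered these last fits.

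Samples share only a number: with the replicate number as a block, 9 members were called in double mutant against WT and 0 in double mutant against PIK3CA (0 also with the GC content and length offset), and 17 of the 34 calls were lost. Of all genes the fit with the block called 2358 and 19 in these comparisons, where the fit without it called 2850 and 163. The deviations of same-numbered samples did not correlate over 0.1 in every pair of any 2 genotypes. They came nearest between HER2 and double mutants, with a mean of 0.157 against -0.0407 for other numbers, where 2 of 4 samples correlated best with their own number.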
